A study of Mus musculus with 4 samples.

Results

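Primary mouse epidermal keratinocytes that served as the control genotype, written F/+, were compared between culture passage 1 and culture passage 3. F/+ cells carried 1 loxP-flanked and 1 wild-type allele of Casp8, the gene of the death receptor protease caspase-8, together with K5-Cre, a recombinase driven by the keratin 5 promoter of basal keratinocytes. The control therefore was not Cre-free and could have lost 1 Casp8 copy, and the labels give no Cre-free or unrecombined culture. The comparison used the 4 F/+ RNA samples of 8 RNA samples in all, 2 at each passage, and all 4 were the Cy5 channel of 2-colour Agilent arrays. The Cy3 channel of the same arrays held RNA of F/- cells, which carry K5-Cre with a flanked and a null Casp8 allele. The age label of every sample is P3. The arrays were numbered as pair 1 and pair 2 at each passage, the series' design text gives 2 mice of each genotype, and passage 3 minus passage 1 was formed within each number. Title, description and passage entry place both late Cy5 samples at passage 3, while their source name says first passage; the former were followed. The p-values rest on a spread pooled over the F/+ and F/- cultures, with 2 mice of each genotype, and drawn towards that of all probes. They speak for these few cultures only.

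The epidermis is renewed from basal keratinocytes, which express keratins 5 and 14, divide, and leave the basal layer to differentiate. Differentiating cells make the proteins of the cornified envelope, which transglutaminases cross-link, and the lipids and proteases of the outer barrier; many envelope genes lie together in the epidermal differentiation complex. Keratinocytes grown on plastic in serum-free medium are known to spread, to express wound-type genes and to have a limited number of divisions.

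The labelled cell type was borne out by its markers at both passages. The basal keratin gene Krt5 had normalized log2 Cy5 levels of 17.14 and 17.41 at passage 1 and 17.42 and 17.38 at passage 3, and Krt14 had 17.46 and 17.72 against 17.71 and 17.68. Neither differed beyond the spread of the fit (adjusted p = 0.749 for Krt5 and 0.780 for Krt14). The transcription factor gene Trp63 (13.37 and 13.35, then 12.68 and 13.85) and the cadherin gene Cdh1 (14.71 and 14.86, then 14.84 and 15.19) were also present throughout. Casp8 itself read 12.06 and 12.23 at passage 1 and 13.00 and 13.66 at passage 3, a log2 difference of 1.19 ± 0.34 (SD, n = 2 pairs) that missed the threshold (adjusted p = 0.0704). Where the Casp8 probe lies relative to the deleted part is not known here, so it checks no label. The share of Cy5 spots well above background ranged from 80.6% to 87.9%, 0 spots were saturated, and 1 slide and 1 scan held all 4 arrays.

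Passage 3 cultures had lost much of the RNA of the terminal differentiation programme and had gained RNA of a number of contractile and matrix genes, of Krt8, Krt18 and Krt19, and of Clu, Csf2 and some other secreted protein genes. Of 23856 genes tested with 1 probe each, 900 rose (3.77% of those tested) and 614 fell (2.57%) in limma's separate-channel fit at an adjusted p under 0.05. The median change over all genes was 0.0245 on the log2 scale. The shares of 3.77% and 2.57% are the background for each list count below. Changes past 16-fold were counted for 15 rising and 39 falling genes. Every called gene moved the same way in both pairs, which a call hardly allows to be otherwise with 2 samples per passage. Over all 23856 genes, 8590 were positive and 7630 negative in both pairs. On the level of probes, 1140 rose and 859 fell of 35242. Starting from the scanner software's processed signals gave 614 and 1327, so that 31.6% in place of 57% of calls were rises; that scaling moved the median of all probes to -0.24. The probe counts depended on single arrays: 59 rose and 124 fell without the passage 1 array of pair 1, 74 and 170 without that of pair 2, 2492 and 2044 without the passage 3 array of pair 1, and 774 and 558 without that of pair 2.

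**Figure D1:**
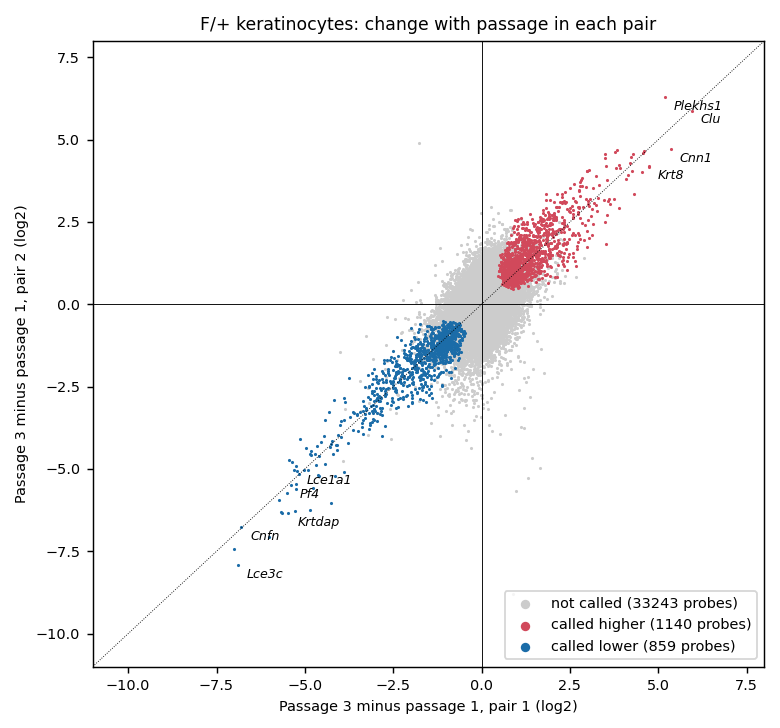
Change with passage of each of the 35242 tested probes in F/+ keratinocytes, with pair 1 on the x axis and pair 2 on the y axis, both as log2 of passage 3 over passage 1; colours mark the 1140 probes called higher and the 859 called lower, and the dotted line marks equal change. The called probes lie along the line in the lower left and upper right, with the most extended tail at the lower left (Lce3c and Cnfn). No called probe has opposite signs in the pairs, which a call hardly allows with so few samples.

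The largest falls were those of cornified envelope and epidermal barrier genes. Lce3c, a late cornified envelope gene, had levels of 15.69 and 16.10 at passage 1 and 8.79 and 8.19 at passage 3, a log2 change of -7.41 ± 0.72 (SD, n = 2 pairs), or 170-fold (adjusted p = 0.00163). Cnfn, which encodes the envelope protein cornifelin, went from 16.03 and 15.66 to 9.23 and 8.88, a change of -6.79 ± 0.016, or 110.4-fold (adjusted p = 1.64e-04). In both genes the passages are far apart, and the pairs lie within 1 log2 unit of each other at each passage. Lce3f changed by -6.54 ± 0.75 and Defb14, a beta-defensin gene, by -5.99 ± 0.49. Krtdap, the gene of keratinocyte differentiation-associated protein, went from 14.09 and 13.82 to 8.62 and 7.48 (-5.90 ± 0.61, adjusted p = 0.00137). Kprp, a keratinocyte proline-rich protein gene, changed by -5.84 ± 0.15. Degs2, a desaturase of ceramide synthesis, changed by -5.78 ± 0.71. The small proline-rich envelope genes Sprr1a and Sprr1b changed by -5.56 ± 0.99 and -5.16 ± 1.25; Sprr1a went from 16.31 and 15.92 to 11.46 and 9.66.

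The same group of 15 genes with the largest falls held several regulators of shedding and adhesion. Spink5, which encodes the protease inhibitor LEKTI, changed by -5.43 ± 0.24. Cdsn, the gene of the corneodesmosome protein corneodesmosin, went from 12.63 and 12.37 to 7.32 and 7.34 (-5.16 ± 0.20, adjusted p = 0.00193). Calm4, a calmodulin-like gene of differentiating epidermis, changed by -5.35 ± 0.14, and the keratin gene Krt23 by -5.63 ± 0.17. Lce1a1 went from 12.68 and 12.43 to 7.46 and 7.36 (-5.14 ± 0.11) and had the smallest adjusted p of all probes, 9.62e-05. The group also held Pf4, a chemokine gene expressed by platelets and macrophages, at -5.44 ± 0.067. For all 15 the passages did not overlap, and their changes ranged from 35.3-fold to 170-fold. Without either passage 1 array Defb14, Krtdap, Degs2, Sprr1a and Sprr1b missed the threshold, and Spink5 without that of pair 1.

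**Figure D2:**
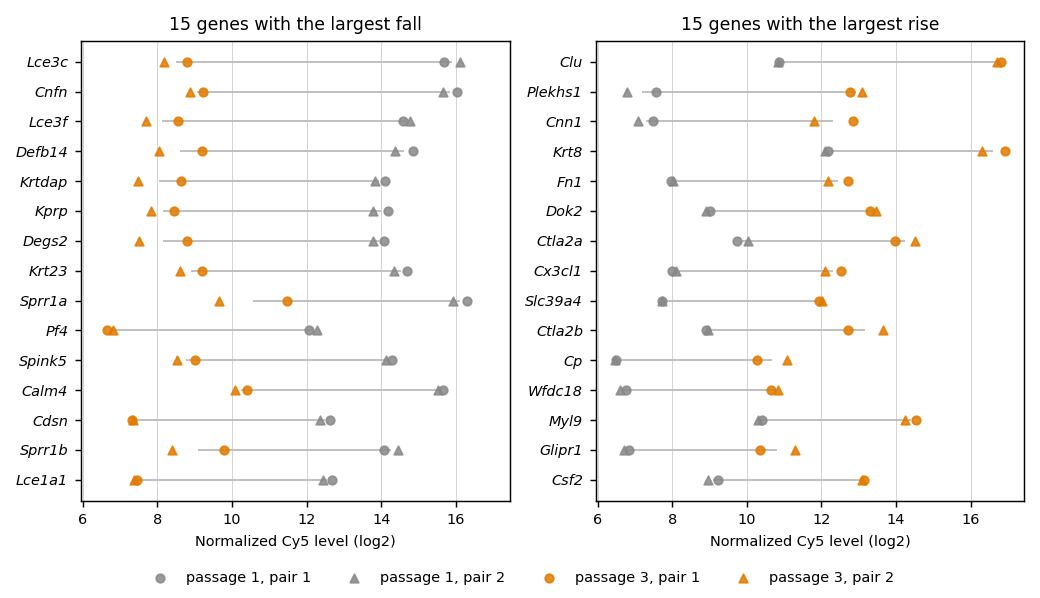
Normalized Cy5 level on a log2 axis of the 15 genes with the largest fall (left) and the 15 with the largest rise (right) among called genes; circles are pair 1, triangles pair 2, grey passage 1 and orange passage 3, and the line joins the 2 passage means. These 30 genes were chosen by the size of their change, so their grey and orange points are separate. They run from Lce3c (15.69 and 16.10 down to 8.79 and 8.19) to Clu (10.86 and 10.84 up to 16.81 and 16.72).

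Over the suprabasal and cornified envelope list, 30 of 45 tested genes fell and 0 rose, with a median change of -2.59 against 0.0245 over all genes; 2.57% of all genes fell. The median was -2.74 in pair 1 and -2.59 in pair 2. Tgm1, the cross-linking transglutaminase of the envelope, went from 13.69 and 13.46 to 9.60 and 9.20 (-4.17 ± 0.12, adjusted p = 0.00112). The desquamation proteases Klk5 and Klk7 changed by -4.68 ± 0.42 and -4.49 ± 0.25. Aloxe3, a lipoxygenase of the lipid barrier, changed by -4.01 ± 0.042. The filaggrin gene Flg (-3.76 ± 0.31, adjusted p = 0.0479) and the loricrin gene Lor (-3.48 ± 0.42, adjusted p = 0.00159) fell as well, as did the desmosomal cadherin genes Dsc1 (-1.93 ± 0.065) and Dsg1b (-1.55 ± 0.19). The list's count was 16 without the passage 1 array of pair 1 and 17 without that of pair 2, with medians of -2.54 and -2.87.

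The list had members that did not fall. Ivl, which encodes the envelope protein involucrin, read 8.80 and 8.97 at passage 1 and 9.77 and 9.69 at passage 3, a difference of 0.84 ± 0.17 (adjusted p = 0.0911). The early suprabasal keratin genes gave 0 calls: Krt1 stood at -0.19 ± 0.11 (adjusted p = 0.582) and Krt10 at -1.81 ± 1.10 (adjusted p = 0.190). Krt10 went from 11.20 to 10.16 in pair 1 and from 10.82 to 8.23 in pair 2, so the pairs differed in size. The probe used for Hrnr, the hornerin gene, was not well above background on either passage 3 array, with measured means of 7.33 and 6.10 (adjusted p = 0.00365), while a second probe, above background on all 4 arrays, stood at -0.32 (adjusted p = 0.307). The Hrnr probe used entered the test only through passage 1, where it is high, so its p adds no evidence of a fall. As a bound for this probe alone, its fall is at least 2.35-fold, which equals its measured fall. The second probe did not reach that size, so the bound does not hold for the gene. With probes above background on all 4 arrays, 43 list genes were tested and 30 fell. Probes of 1 gene could differ: the Abca12 probe used changed by -3.46, and its other probes by -0.15 and -1.13. For the lipoxygenase gene Alox12b the probe used stood at -0.13, while another changed by -3.43. That other probe was well above background on both passage 1 arrays but on neither passage 3 array.

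The epidermal differentiation complex on chromosome 3, taken here as the genes from S100a1 to S100a11 in the RefSeq table, was described as a block. Of its 69 genes, 52 were tested; 23 fell (44.2%) and 1 rose, and the median change was -1.18. On the level of families, 11 of 14 Lce genes fell (median -3.91) and 6 of 11 Sprr genes (median -1.24). Of 13 S100 genes, which encode small calcium-binding proteins, 0 fell and 1 rose, with a median of 0.12; the riser was S100a1 at 1.30. Among S100 genes the lowest value was -1.06. Members of the Lce family without a call were Lce1h, Lce1i and Lce1l, and among Sprr genes Sprr2a1 had the highest value, 0.21. Lce and Sprr genes are near-identical copies in part, so probes may read more than 1 member.

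**Figure D3:**
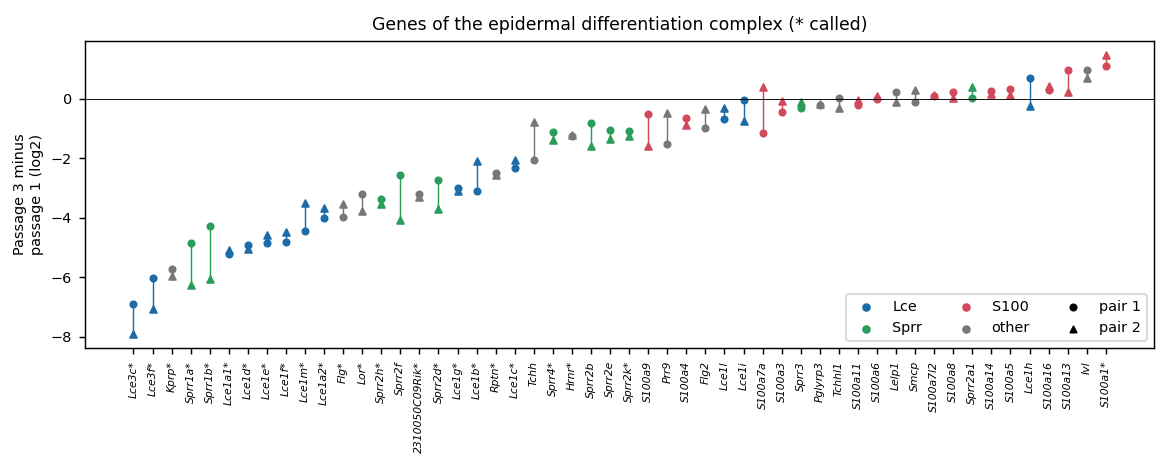
Log2 change with passage of each of the 52 tested genes of the epidermal differentiation complex, ordered by their mean; circles are pair 1, triangles pair 2, colours mark the family and an asterisk a called gene. Lce genes fill most of the left end, with Lce3c lowest, and the S100 genes gather around 0 at the right, where S100a1 is the called riser.

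Promoter sequences of falling and non-falling envelope genes are shown because many envelope promoters are known to hold sites for AP-1, the Fos and Jun transcription factor complex, whose own genes are described further on. The AP-1 motif searched was TGANTCA, which reads the same on either strand. The windows cover 250 bases before to 50 after the start of the gene, are printed 5′ to 3′ on the gene's strand, and come from RefSeq, build GRCm38.p6; capitals mark the motif. Krtdap is at chr7:30787655-30787954 (plus strand), Sprr1a at chr3:92485832-92486131 (minus), Lor at chr3:92083093-92083392 (minus) and Ivl at chr3:92573686-92573985 (minus).
Krtdap: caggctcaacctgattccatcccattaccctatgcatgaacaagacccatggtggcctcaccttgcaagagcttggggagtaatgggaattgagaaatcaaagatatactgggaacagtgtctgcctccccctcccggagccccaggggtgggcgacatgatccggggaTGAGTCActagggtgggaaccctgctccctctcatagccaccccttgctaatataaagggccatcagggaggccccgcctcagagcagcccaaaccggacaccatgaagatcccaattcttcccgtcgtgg
Sprr1a: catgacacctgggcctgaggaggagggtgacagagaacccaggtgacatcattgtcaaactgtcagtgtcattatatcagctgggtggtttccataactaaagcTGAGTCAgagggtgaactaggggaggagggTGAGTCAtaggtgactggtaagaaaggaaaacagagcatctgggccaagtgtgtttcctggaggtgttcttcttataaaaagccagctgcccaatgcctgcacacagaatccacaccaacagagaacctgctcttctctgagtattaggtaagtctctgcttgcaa
Lor: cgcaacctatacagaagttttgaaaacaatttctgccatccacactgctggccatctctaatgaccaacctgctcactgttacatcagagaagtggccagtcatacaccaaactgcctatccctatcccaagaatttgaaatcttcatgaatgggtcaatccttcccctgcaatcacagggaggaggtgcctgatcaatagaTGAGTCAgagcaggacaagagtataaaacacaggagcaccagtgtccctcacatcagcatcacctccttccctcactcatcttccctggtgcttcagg
Ivl: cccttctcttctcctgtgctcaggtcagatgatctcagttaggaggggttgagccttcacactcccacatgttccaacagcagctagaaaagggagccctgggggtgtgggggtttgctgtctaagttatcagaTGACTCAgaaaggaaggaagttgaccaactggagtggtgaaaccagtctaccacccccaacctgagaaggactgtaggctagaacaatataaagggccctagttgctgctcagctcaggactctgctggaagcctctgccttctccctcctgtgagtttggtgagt

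The motif occurred in the windows of genes that fell and in that of Ivl, which did not. Sprr1a held 2 matches and Krtdap, Lor and Ivl 1 each. Of the 30 list members that fell, 24 had a window in the table, and 9 of these (37.5%) held the motif: Dmkn, Flg, Krtdap, Lor, Rptn, Sbsn, Sprr1a, Sprr1b and Sprr2d. Among the members without a call, 2 of 12 with a window held it (16.7%), Flg2 and Ivl. Over all 27025 genes of the table the share was 8.97%. The motif was chosen after these values were seen, and a match in a window is a description, not a bound site.

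Transcription factors of epidermal differentiation fell in part. Of 32 tested genes of the list on epidermal transcription factors and Notch, 5 fell and 2 rose (median -0.61). Hopx, a homeodomain-only protein of suprabasal cells, went from 16.19 and 15.87 to 10.73 and 11.13 (-5.10 ± 0.51, adjusted p = 0.00310). Ovol1, a zinc-finger gene of differentiating keratinocytes, went from 12.44 and 12.30 to 7.91 and 8.11 (-4.36 ± 0.25, adjusted p = 1.08e-04). Grhl1, Prdm1 (Blimp1) and Klf4, which all take part in barrier formation, changed by -2.67 ± 0.57, -2.58 ± 0.30 and -2.15 ± 0.54. The Notch ligand gene Jag1 rose from 12.36 and 12.28 to 15.03 and 15.38 (2.88 ± 0.31, adjusted p = 3.11e-04), and Ovol2 by 0.99 ± 0.18. The receptor gene Notch1 stood at -0.60 ± 0.051 (adjusted p = 0.0920). Grhl1 lost its call without normalization between arrays (adjusted p = 0.0978).

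Barrier lipid and junction genes showed falls around specific members. Of 28 fatty acid and barrier lipid genes 7 fell and 1 rose (median -0.13). Beside Degs2 and Abca12 these were Smpd3 (-3.71 ± 0.26), a sphingomyelinase, Elovl4 (-3.11 ± 0.016), which makes very long fatty acids, Dgat2 (-2.74 ± 0.0066), which makes triglyceride, Ugcg (-2.24 ± 0.25), which makes glucosylceramide, and Elovl6 (-0.87 ± 0.34). Of 27 junction genes 6 fell and 2 rose (median -0.13). The connexin genes Gjb6 and Gjb2 changed by -4.64 ± 0.28 and -2.08 ± 0.20; Gjb6 went from 12.16 and 12.21 to 7.72 and 7.38. The tight junction gene Cldn1 (-1.63 ± 0.46) and the desmocollin genes Dsc2 (-1.55 ± 0.18) and Dsc3 (-1.58 ± 0.34) fell as well. Pkp2, a plakophilin gene, rose by 2.36 ± 0.34 and Cldn6 by 1.39 ± 0.18.

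Stress keratins and alarmins divided by member. Of 23 tested genes 8 fell and 1 rose (median -0.67). Krt16 went from 17.09 and 17.06 to 15.61 and 15.43 (-1.56 ± 0.097, adjusted p = 0.00365). Its relatives in activated epidermis gave no call, with Krt6a at -0.33 ± 0.43 and Krt17 at -0.18 ± 0.16. Krt75 changed by -2.90 ± 0.044. The genes the array names Il1f6, Il1f8 and Il1f9, of the interleukin-36 cytokines, changed by -2.41 ± 0.56, -2.14 ± 0.39 and -2.68 ± 0.74. The protease inhibitor genes Stfa2, Stfa3 and Serpinb3b changed by -2.92 ± 0.032, -2.59 ± 0.083 and -2.37 ± 0.0017. The riser was Lcn2, an iron-carrier-binding protein of innate defence, from 6.81 and 6.58 to 9.04 and 9.67 (2.66 ± 0.61, adjusted p = 0.00202).

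The largest rises had a different make-up. Clu, which encodes the chaperone clusterin, went from 10.86 and 10.84 at passage 1 to 16.81 and 16.72 at passage 3, a change of 5.91 ± 0.051, or 60.3-fold (adjusted p = 0.00122). Plekhs1 went from 7.57 and 6.79 to 12.76 and 13.09 (5.74 ± 0.78, adjusted p = 0.00563). Both genes were higher in each passage 3 culture than in either passage 1 culture, as were all 15 genes with the largest rise, whose folds ranged from 16.2 to 60.3. The same held for 6647 of all 23856 genes. Dok2, an adaptor of tyrosine kinase signalling, changed by 4.41 ± 0.19, and the paired protease-inhibitor-like genes Ctla2a and Ctla2b by 4.36 ± 0.17 and 4.25 ± 0.61. The zinc transporter gene Slc39a4 changed by 4.26 ± 0.065 and the ceruloplasmin gene Cp by 4.20 ± 0.59. Wfdc18 rose by 4.06 ± 0.24 and Glipr1 by 4.03 ± 0.76. Without either passage 1 array Cp, Glipr1 and Fn1, described further on, missed the threshold, and Ctla2b and Wfdc18 without that of pair 1.

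Called members of the simple epithelial keratin list moved in both directions. Krt8, Krt18 and Krt19, which epidermis normally expresses little, all rose. Krt8 went from 12.19 and 12.11 to 16.92 and 16.30 (4.46 ± 0.39, 22-fold, adjusted p = 2.83e-04). Krt18, the partner with which Krt8 forms filaments, went from 13.99 and 13.82 to 16.58 and 16.43 (2.61 ± 0.015, adjusted p = 0.00112), and Krt19 rose by 1.73 ± 0.16. Of the 7 tested members the other called ones fell: Krt23, Krt80 (-2.90 ± 0.55) and Krt20 (-0.94 ± 0.16, adjusted p = 0.0454). Krt23 was not low at passage 1, where it read 14.70 and 14.34, so the 2 directions depend on which keratins the list holds. Krt80 lost its call without normalization between arrays (adjusted p = 0.0616). The call of Krt20 was also lost with the pair as a block (adjusted p = 0.0661), with Cy5 channels only in the fit (0.0777) and with the scanner's processed signals (0.0536).

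Some contractile and matrix genes rose. Of 26 tested genes of the mesenchymal transition list 10 rose and 0 fell (median 0.92; 3.77% of all genes rose). Cnn1, which encodes the smooth muscle protein calponin, went from 7.50 and 7.09 to 12.84 and 11.80 (5.03 ± 0.45, adjusted p = 7.05e-04). The myosin light chain gene Myl9 went from 10.40 and 10.31 to 14.53 and 14.24 (4.03 ± 0.15, adjusted p = 1.09e-04), and Tagln, the gene of the actin-binding protein transgelin, rose by 3.07 ± 0.092. The tropomyosin genes Tpm1 and Tpm2 rose by 1.88 ± 0.40 and 1.61 ± 0.23. Among matrix genes, the fibronectin gene Fn1 went from 7.98 and 8.01 to 12.72 and 12.19 (4.46 ± 0.40, adjusted p = 0.00112), and Thbs1 (thrombospondin 1) and Tnc (tenascin C) rose by 3.07 ± 0.18 and 2.76 ± 0.30. The secreted regulators Ccn2 and Ccn1 rose by 2.29 ± 0.36 and 1.76 ± 0.22. Without the passage 1 array of pair 1 or of pair 2 the list had 4 rises each, with medians of 0.98 and 1.02.

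Other members usually read beside these did not pass. Vim, the gene of the mesenchymal filament vimentin, stood at -1.11 ± 0.16 (adjusted p = 0.362), from 12.65 and 13.50 to 11.65 and 12.28. The transcription factor genes Zeb1 and Snai2 stood at 0.43 ± 0.14 and 0.11 ± 0.16, the cadherin gene Cdh2 at -0.00078 ± 0.31 and Cdh1 at 0.23 ± 0.14. The probe used for Acta2, which encodes smooth muscle actin, stood at 0.85 ± 0.73 (adjusted p = 0.317), while 2 other Acta2 probes rose by 4.62 (adjusted p = 1.99e-04) and 4.59 (adjusted p = 1.95e-04) and a further one stood at 0.094. The skeletal actin gene Acta1 rose by 2.42 ± 0.66. A further Fn1 probe stood at 1.07 (adjusted p = 0.116).

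The promoter of Myl9 is shown because it was the 1 window, of 6 available among the 10 rising members, that held a CArG box, the site of serum response factor known from contractile genes. The motif, which reads the same on both strands, was found in 1.81% of all genes of the table, and in 1 of 11 windows of the members without a call, that of Cnn2. The window lies at chr2:156775214-156775513 (plus strand), with the CArG box in capitals.
Myl9: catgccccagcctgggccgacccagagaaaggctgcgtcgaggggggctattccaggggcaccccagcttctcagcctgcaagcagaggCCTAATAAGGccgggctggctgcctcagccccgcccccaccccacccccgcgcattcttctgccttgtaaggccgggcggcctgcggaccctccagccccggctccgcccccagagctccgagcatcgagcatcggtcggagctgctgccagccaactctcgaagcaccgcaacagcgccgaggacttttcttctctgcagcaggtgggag

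Genes of the TGF-beta pathway and of the matrix rose in smaller numbers. Of 29 pathway genes 6 rose and 1 fell (median 0.23). The ligand gene Tgfb3 went from 8.69 and 8.81 to 11.56 and 11.76 (2.91 ± 0.060, adjusted p = 2.64e-04), and the ligand gene Tgfb2 rose by 1.13 ± 0.057. The receptor gene Tgfbr1 rose by 1.38 ± 0.0096 (another probe stood at -0.047). Smad3, a signal transducer gene, rose by 1.15 ± 0.025, with other probes at 0.88 and 0.23. The latency protein gene Ltbp3 rose by 1.06 ± 0.20 and the target gene Id3 by 1.20 ± 0.45. Fst, the gene of the activin-binding inhibitor follistatin, fell by 1.60 on the log2 scale. Of 25 collagen genes 3 rose: Col7a1, which anchors the epidermis to the dermis, by 1.96 ± 0.23, Col5a2 by 1.54 ± 0.029 and Col5a3 by 2.42 ± 0.47, whose other probe stood at -0.43. Of 31 genes of matrix proteases and inhibitors 4 rose and 0 fell: the urokinase gene Plau (2.45 ± 0.40), Adamts4 (2.38 ± 0.13), Mmp11 (1.85 ± 0.061) and Mmp15 (1.79 ± 0.17). Plau missed the threshold with the pair as a block (adjusted p = 0.0760), and Col5a2 (0.133), Col5a3 (0.0522), Fst (0.0867), Id3 (0.105), Tgfbr1 (0.0623) and Plau (0.0828) without normalization between arrays.

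Basal keratinocyte and adhesion genes had few calls, which does not show that they were unchanged. In limma's separate-channel fit 7 of 24 basal genes had an unadjusted p under 0.05 (29.2%). So did 10 of 25 integrin and laminin genes (40%), against 21.7% of all genes. Of the epidermal growth factor receptor ligands and regulators given below, 9 of 20 did (45%). Of 24 basal genes 2 rose and 1 fell (median 0.13), where 3.77% of all genes rose and 2.57% fell. Postn, the gene of the matrix protein periostin, rose from 7.64 and 7.71 to 10.96 and 11.33 (3.47 ± 0.21, adjusted p = 2.68e-04), with another probe at 0.27, and Wnt4, a secreted signal, changed by -2.15 ± 0.65. Of 25 integrin and laminin genes 1 rose, Lamb1 at 1.16 ± 0.047, and 1 fell, Itgb3 at -1.45 ± 0.41, whose other probe stood at 0.87. Some genes without a call had another probe past the threshold. These were Itga6 at -1.53 (a further probe at -0.63), Itgb6 at 1.37 (a further probe at -0.66) and Lama4 at 0.91 (a further probe at 1.06). Of 20 genes of epidermal growth factor receptor ligands and regulators 0 rose and 3 fell: the ligand genes Nrg1 (-2.34 ± 0.47) and Epgn (-1.87 ± 0.33) and the receptor gene Erbb3 (-1.15 ± 0.24), of which 4 other probes stood between -0.44 and 0.10. Without normalization between arrays the adjusted p was 0.115 for Nrg1 and 0.140 for Erbb3.

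Secreted immune signals shifted in both directions. Of 30 cytokine and chemokine genes 8 rose and 6 fell (median 0.13; -0.023 without normalization between arrays). The myeloid growth factor genes rose: Csf2 (GM-CSF) went from 9.23 and 8.96 to 13.14 and 13.09 (4.02 ± 0.15, adjusted p = 0.00170), Csf1 by 2.65 ± 0.20 and Csf3 by 2.02 ± 0.22. Il23a, a subunit of interleukin 23, rose by 2.82 ± 0.76, and the chemokine genes Ccl5, Cxcl5 and Cxcl12 by 2.79 ± 0.50, 2.54 ± 0.87 and 1.08 ± 0.028. Cx3cl1, the membrane-bound chemokine fractalkine, rose by 4.26 ± 0.37, but its second probe stood at -0.28. The alarmin gene Il33 went from 10.82 and 11.18 to 7.97 and 8.56 (-2.74 ± 0.17, adjusted p = 0.00624). The interleukin-1 antagonist gene Il1rn changed by -2.54 ± 0.38, the skin chemokine genes Ccl27a and Cxcl14 by -2.44 ± 0.46 and -1.76 ± 0.090, Cxcl2 by -1.82 ± 0.40 and Il24 by -1.37 ± 0.15. Cxcl5 lost its call with Cy5 channels only in the fit (adjusted p = 0.0787).

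Among interferon-stimulated genes the number of calls depended on the setting. Of 43 tested genes 3 rose and 0 fell, with a median of 0.87, and 36 were positive in both pairs. Over all 23856 genes 3.77% rose, and 8590 were positive in both pairs. The exonuclease gene Isg20 went from 9.34 and 9.35 to 11.92 and 12.59 (2.91 ± 0.46, adjusted p = 0.00112). The antiviral gene Rsad2 rose by 2.85 ± 0.16 and the DNA sensor family gene Ifi205 by 2.85 ± 0.12. The median was 0.98 in pair 1 and 0.90 in pair 2. With the Cy5 channel normalized alone 12 rose, with Cy5 channels only in the fit 9 and with median centring 7, and 0 fell in each. The list had 0 calls without either passage 1 array and 7 without the passage 3 array of pair 1, and Rsad2 missed the threshold with the pair as a block (adjusted p = 0.0543). Of 24 genes of MHC and antigen processing 1 rose, the proteasome activator gene Psme1 at 0.79 ± 0.26, and of 23 NF-kB subunits and feedback genes 1 fell, the kinase gene Map3k8 at -1.83 ± 0.24. These single calls stand beside shares of 3.77% rising and 2.57% falling over all genes.

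Immediate early genes are those of the Fos, Jun and Egr families and their companions, which respond within minutes to stimulation. Of 26 tested genes 8 fell and 0 rose (median -0.69), and the called ones held no Jun gene. Fos went from 11.68 and 11.67 to 8.50 and 9.14 (-2.85 ± 0.47, adjusted p = 0.00451), Egr3 changed by -2.12 ± 0.11 (another probe stood at 0.20) and the RNA-decay factor gene Zfp36 by -1.51 ± 0.40. Klf4, Btg1, Dusp1, Maff and Ier3 were the other called members, from -2.15 to -0.78. Egr2 had a larger difference, -2.88 ± 0.46, which missed the threshold (adjusted p = 0.0559). Without either passage 1 array the list had 1 call each, with medians of -0.64 and -0.71, and Fos missed the threshold in both cases (adjusted p = 0.0628 and 0.0569).

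Proliferation genes gave 1 call. Of 42 mitosis and spindle genes 0 were called (median -0.062), with 4 at an unadjusted p under 0.05 (9.5%, against 21.7% of all genes), and the proliferation marker Mki67 read 12.99 and 13.04 at passage 1 and 12.64 and 13.05 at passage 3 (adjusted p = 0.724). Of 42 DNA replication genes 0 rose and 1 fell (2.38%, near the 2.57% of all genes; median -0.24). The cell cycle inhibitor gene Cdkn2a was not well above background on either passage 1 array (5.98 and 5.97) and read 8.75 and 9.68 at passage 3, at least 9.44-fold higher (adjusted p = 0.00178). This fold is a bound: the passage 3 mean over, per passage 1 array, the higher of the probe's own signal and the lowest signal of probes well above background. Probes had to be well above background on at least 2 arrays. The Cdkn2a probe passed only through passage 3, where it is high, so its p adds no evidence of a rise. Without either passage 1 array the gene missed the threshold (adjusted p = 0.0879 and 0.0857). Of the 31 tested Cdk inhibitor and p53 target genes, Gadd45g (1.74 ± 0.090) and Glb1 rose too, and 0 fell. Glb1, the senescence-associated galactosidase gene, stood at 0.86 ± 0.30, with other probes at 0.98 and 0.073. Cdkn1a, which encodes p21, read 14.07 and 14.28 against 13.92 and 12.97 (adjusted p = 0.201). Of 34 secretory senescence genes 4 rose and 1 fell, of which Csf2, Csf3, Plau, Cxcl5 and Cxcl2 have been given above.

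Of 36 death pathway genes 4 rose and 0 fell (median 0.32), where 3.77% of all genes rose and 2.57% fell. Casp6, which encodes an effector caspase, rose by 1.37 ± 0.18, and Bid, whose product caspase-8 cleaves, by 0.98 ± 0.15. Bcl2l11, which encodes the BH3-only protein Bim, rose by 1.71 ± 0.30 on the probe used, while its other probes stood at -0.34 and -0.061.

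Metabolic lists had calls in single members, where 3.77% of all genes rose and 2.57% fell. Of 35 glutathione and NRF2 genes 3 rose and 3 fell: Hmox1, the heme oxygenase, went from 15.27 and 14.82 to 12.31 and 11.96 (-2.91 ± 0.075, adjusted p = 0.00191), Gsta4 changed by -2.17 ± 0.096, and the microsomal transferase gene Mgst1 by 2.37 ± 0.77. Of 29 hypoxia and glycolysis genes the vasodilator peptide gene Adm fell (-1.62 ± 0.56) while P4ha2 and Pfkm rose by 1.41 ± 0.19 and 1.15 ± 0.059. Of 25 cholesterol synthesis genes 1 rose and 1 fell, the latter Pmvk at -1.09 ± 0.10 (median -0.40). In that list 18 genes were negative in both pairs, and 13 had an unadjusted p under 0.05 (52%, against 21.7% of all genes). Of 39 cytosolic ribosomal protein genes 0 were called, with 1 at an unadjusted p under 0.05 (median -0.045), and of 35 respiratory chain genes 1 fell, Ndufa5 at -0.96 ± 0.36, which missed the threshold with the pair as a block (adjusted p = 0.0595). Among the 13 housekeeping genes 2 rose, Gusb at 0.99 ± 0.068 and Actb at 1.28 ± 0.20, and the second Actb probe stood at -0.13.

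**Figure D4:**
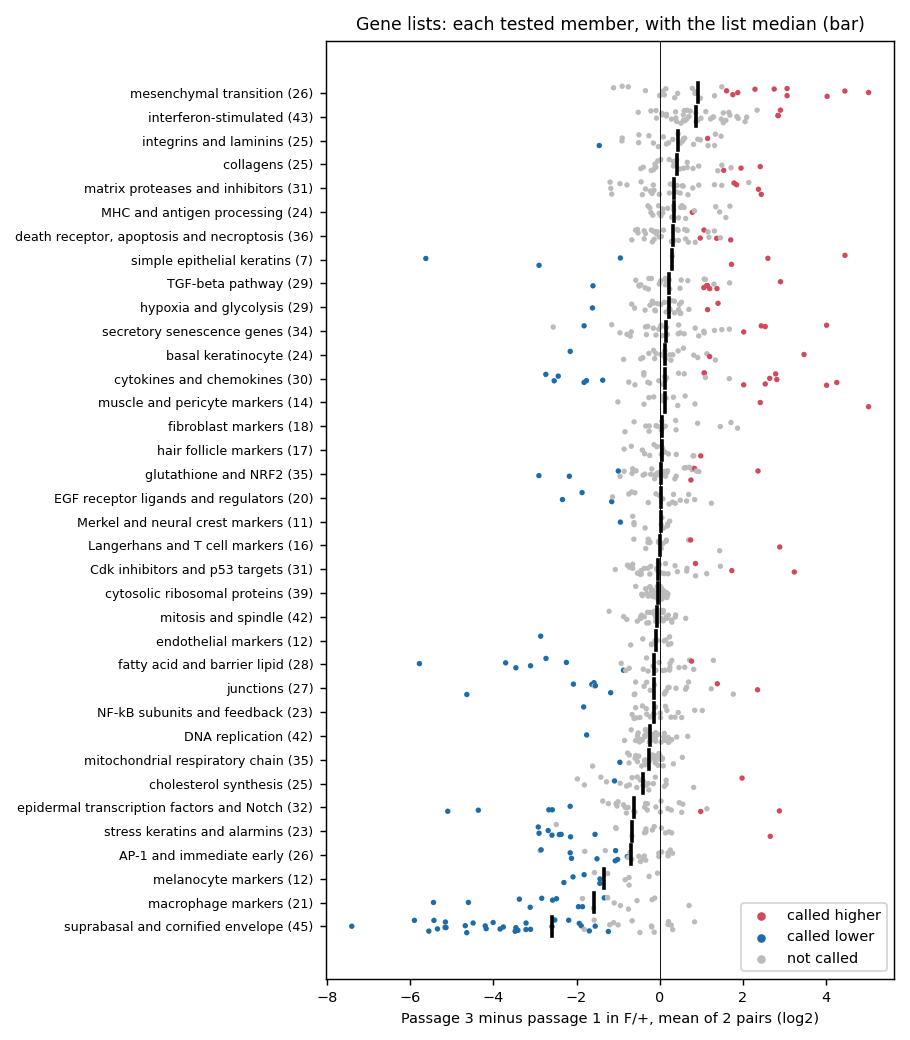
Log2 change with passage, as the mean of 2 pairs, of every tested member of 36 gene lists, ordered by the list median (black bar), with the number of tested genes in brackets; red points were called higher, blue lower and grey not called. The suprabasal and cornified envelope list lies lowest (median -2.59), followed by macrophage (-1.59) and melanocyte markers (-1.34), and the mesenchymal transition list highest (0.92).

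Markers of other skin cells moved with passage as well. Of 21 tested macrophage markers 10 fell and 0 rose (median -1.59), and the sum of their normalized Cy5 signals went from 33400 to 38100 at passage 1 to 5530 to 5740 at passage 3. Beside Pf4, the cathepsin gene Ctss went from 12.33 and 12.85 to 7.73 and 8.24 (-4.60 ± 0.0013, adjusted p = 0.00922), the complement gene C1qc changed by -3.38 ± 0.31 and the lysozyme gene Lyz2 by -3.12 ± 0.083. The defining marker Cd68 read 10.72 and 10.59, then 9.12 and 8.48 (-1.86 ± 0.36, adjusted p = 0.0117), while the leukocyte gene Ptprc stood at -0.75 ± 0.096 (adjusted p = 0.109). The count was 1 without either passage 1 array, with medians of -1.60 and -1.58. Of 12 melanocyte markers 5 fell and 0 rose (median -1.34), with Pmel at -2.31 ± 0.80, Mlana at -2.08 ± 0.61 and the pigment enzyme gene Dct at -1.44 ± 0.22. Their summed signal went from 77600 to 94200 down to 26400 to 29800, and Dct still read 14 and 13.99 at passage 3. The melanocyte count was 1 without the passage 1 array of pair 1 and 0 without that of pair 2. The part of either cell type in the falls of other genes was not tested. In such unsorted RNA, fewer cells of a type and less RNA per cell cannot be told apart.

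Other marker lists had few calls, where 3.77% of all genes rose and 2.57% fell. Of 18 fibroblast markers 0 rose and 0 fell, with 3 at an unadjusted p under 0.05 (median 0.049); the collagen gene Col1a1 read 7.31 and 7.92, then 8.63 and 10.04 (1.72 ± 0.56, adjusted p = 0.201), and decorin, Dcn, stood at 0.049 ± 0.13. The summed fibroblast signal was 8640 and 11200 at passage 1 and 16900 and 17100 at passage 3, so it moved in the same direction as the contractile and matrix genes, and its part in their rise was not tested. Of 14 muscle and pericyte markers the rising ones were Cnn1 and Acta1. Of 16 Langerhans and T cell markers Cd1d1 (2.89 ± 0.75) and Lck (0.75 ± 0.26) rose, while the defining Cd207 stood at -0.62 ± 0.56 and Cd3e at -0.28 ± 0.79; the Lck call was lost with the pair as a block (adjusted p = 0.0888). Of 12 endothelial markers 1 fell, the receptor gene Kdr at -2.86 ± 0.33 with another probe at -0.23, and Pecam1 stood at -0.19 ± 0.055. Hair follicle markers had 1 riser of 17, Cd34 at 0.99 ± 0.20. Of 11 Merkel and neural crest markers the fall was that of Krt20. The sex-linked genes Xist and Eif2s3y gave 0 calls, at -0.15 ± 0.22 and -0.32 ± 0.82.

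Leaving out a passage 1 array lowered the calls of most lists. Without that of pair 1 and that of pair 2 in turn, 4 and 4 stress keratins and alarmins fell, 3 and 4 barrier lipid genes, 1 and 2 junction genes, and 2 and 3 epidermal transcription factors, while 2 and 3 cytokine genes and 1 and 1 TGF-beta genes rose.

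**Figure D5:**
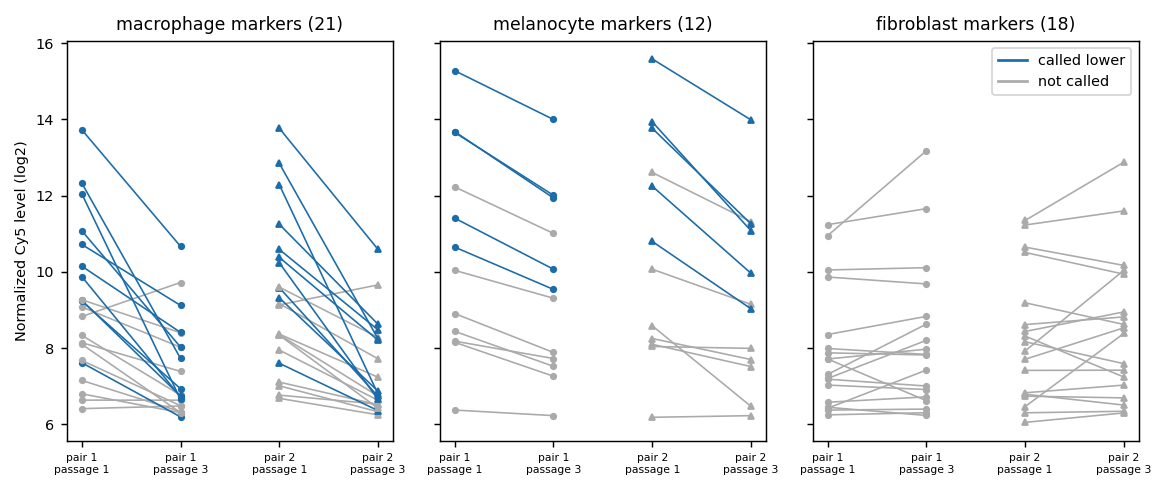
Normalized Cy5 level on a log2 axis of each tested macrophage (21), melanocyte (12) and fibroblast (18) marker at passage 1 and passage 3; lines join the 2 passages of a pair, with circles for pair 1 and triangles for pair 2, and blue marks genes called lower. Most macrophage lines slope down in both pairs, many to levels between 6 and 8, most melanocyte lines slope down too, and fibroblast lines go both ways.

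The passage change was compared with that of F/- cells on the same arrays. The difference between the 2 genotypes' changes, tested as an interaction in limma's separate-channel fit, had 0 calls in 35242 probes (0%), with 2478 at an unadjusted p under 0.05 and a smallest adjusted p of 0.156. Without the passage 3 array of pair 2 it had 115 calls, and without normalization between arrays 7. The F/- changes of the 15 leading rises ranged from 3.07 to 5.82. Those of the 15 leading falls ranged from -8.02 to -3.54. These genes were chosen by their F/+ change, and both channels share spots (intraspot correlation 0.742). Clu changed by 5.82 in F/- and 5.91 in F/+, and Lce3c by -8.02 and -7.41. Pf4 changed by -3.54 in F/- and -5.44 in F/+, the F/- value nearest to 0 among the falling genes. The adjusted p of the interaction lay between 0.227 and 0.998 over these 30 genes. A p above the threshold does not show that the genotypes change alike, and array effects enter both changes.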

How the data were processed

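The deposited scanner files hold, per the file headers, raw intensity of each spot (mean signal and median local background) in Cy3 and Cy5, and the submitters' processing notes name Agilent Feature Extraction 9.1.3.1. The well-above-background, saturation and outlier flags were read from the same deposited files (unit other). From these, background was corrected with normexp (offset 50, which compresses low levels and understates folds of dim genes), ratios were normalized with loess within arrays, and both channels with Aquantile between arrays in limma 3.58.1 under R 4.3.3. Control spots had weight 0 in loess, flagged spots were left out, and spots of a probe were averaged. Probes well above background in Cy5 on at least 2 arrays and measured on 4 were kept (35242 of 41174). Both genotypes and passages entered one separate-channel fit (intraspot correlation 0.742, 4 residual and 3.36 prior degrees of freedom), with two-sided moderated tests, Benjamini-Hochberg adjustment over all probes and a threshold of 0.05. A gene was read from its probe with the highest mean Cy5 level. Names came from RefSeq of GRCm38.p6 through accession (22951 array probes), symbol (6659) or older symbol (3109); 8455 kept the name in the file.

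No dyes were exchanged: a dye effect equal on all arrays cancels between passages. An exact permutation test of 2 against 2 cannot go below 0.333. That same-numbered arrays come from the same mouse is not stated in the labels and was assumed from the 2 mice per genotype. Their deviations from the passage means correlated at 0.0305, which lends the pairing no support. The SD of the 2 pairs depends on this pairing, while the mean change does not. The pair number as a block was an alternative. The precision is limited by the number of arrays. Named were the 15 largest called changes per direction with 1 sign in both pairs, the 4 largest changes per list and defining markers; other genes were added after their values were seen. The members and the 38 lists were chosen with earlier results of these data known. Some called members of the lists are counted but not reported here by name.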

Additional observations from a re-analysis of the deposited data

Results flagged for a closer look

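Krt20, a keratin gene of simple epithelia and Merkel cells, fell by 0.945 on the log2 scale in F/+ cells (-0.83 and -1.06 in pairs 1 and 2), while F/- cells of both pairs stood at 0.077 and 0.32. The difference of 1.14 between the genotypes' changes missed the threshold in limma's separate-channel fit (adjusted p = 0.227).

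The medians of 2 lists also had opposite signs in the genotypes, and these differences were not tested. The basal keratinocyte list had a median change of 0.135 in F/+ (0.28 and 0.19 in the pairs) against -0.017 and -0.026 in F/-. The hypoxia and glycolysis list had a median of 0.227 in F/+ cells, and its medians in both F/- pairs lay below 0.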

How the results depend on the processing

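Over 14 alternatives that test probes, the counts of rises and falls stayed within 1.5 times of 1140 and 859, except in those named here. Without normalization between arrays 423 probes rose, 389 fell and 7 passed the interaction. The scanner's processed signals gave 614 rises and 1327 falls. Leaving out single arrays gave from 59 to 2492 rises, from 124 to 2044 falls and from 0 to 115 interaction calls; these fits assume that the lone sample varies like the other groups and use the correlation between channels of all 4 arrays. With the replicate block, the pair number within genotype, 867 probes rose and 769 fell, 1410 of them among the 1999; of the named genes Gstm1, Krt20, Lck, Ndufa5, Plau and Rsad2 lost their calls. Without normalization between arrays the calls of Actb, Cd34, Cxcl5, Gadd45g, Gjb2, Gpnmb, Gstm1, Gusb, Itgb3, Krt20, Lck, Ndufa5 and Rsad2 were lost beside those given above, and with the scanner's signals those of Cd34, Erbb3, Gadd45g, Gstm1, Gusb, Id3, Itgb3, Krt20, Lck, Ndufa5 and Pfkm. Leaving out the passage 1 array of pair 1 or of pair 2 ended 71 and 67 of the 103 named calls, in both cases those of Krtdap, Defb14, Sprr1a, Fn1, Fos and Cdkn2a, while Lce3c, Cnfn, Clu, Cnn1, Krt8 and Pf4 kept theirs; leaving out a passage 3 array ended 7 (pair 1) and 16 (pair 2). No named called gene reversed its direction. The medians of the suprabasal, macrophage, melanocyte, mesenchymal, immediate early and interferon lists kept their sign in each of 15 alternatives, while 14 lists, with medians no larger than 0.15 in size, took the other sign in 1 to 5 of them. The cause of these shifts was not tested. Low signal limits Cdkn2a and the Hrnr probe used to a bound.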
